A study of Mus musculus with 24 samples.

Results

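The genes of the proteasome were followed through the first postnatal weeks in nuclei of mouse cardiomyocytes (CMs), with and without Caspase-2. Members were all protein-coding genes whose symbol is Psm, a letter from a to g and a digit, with pseudogenes (-ps) left out, which gave 51 of the 56923 gene identifiers in the count tables. Of these, 49 encode parts or partners of the proteasome: 19 belong to the 20S core, 17 to the 19S cap, 7 are assembly factors and 6 are activators or the inhibitor of the core. The other 2, Psmc3ip and Psme3ip1, matched by symbol alone and encode no proteasome subunit. A gene was tested when its reads summed to 10 or more and came from 3 or more of the 21 libraries used, and 45 members met this, among 20368 genes tested (17 of the 20S core, 17 of the 19S cap, 6 assembly factors, 4 activators and inhibitor, and Psme3ip1). The 6 that did not were Psmb8, Psmc3ip and Psme2, with few reads, and Psmb9, Psme2b and Psmg3, with 0 reads.

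The proteasome is the protease that degrades ubiquitin-tagged proteins in the cytosol and nucleus. Its 20S core is a barrel of alpha rings around beta rings, and the catalytic sites lie in beta subunits; the 19S cap recognises ubiquitin, removes it and unfolds the substrate with a ring of ATPases. Chaperones assemble the particle, the transcription factor NFE2L1 raises transcription of its genes when proteasome activity falls, and in CMs protein quality control of the sarcomere relies on it.

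Nuclei were sorted from hearts by staining for PCM1, a protein that marks CM nuclei, and nuclear RNA was sequenced from its 3′ ends (QuantSeq FWD, low-input protocol). Hearts were taken at postnatal day 1 (P1), day 7 (P7) and day 14 (P14), and 15, 6 and 2 hearts, respectively, were pooled per library. Control animals were XMLC2(-)Casp2(fl/fl) and Casp2-depleted animals XMLC2(+)Casp2(fl/fl), so the floxed Casp2 alleles were shared by all groups and only the latter carried the XMLC2-Cre transgene, whose myosin light chain promoter drives Cre in cardiac muscle. Each of the 6 groups had 4 libraries, and the study set aside 3 of the 24 as of low quality (replicate 1 of the P1 control, replicate 3 of the P14 control and replicate 1 of P14 Casp2-depleted). For replicate 1 of the P1 control, the paper named signs of cytoplasmic contamination. In that library 1.88% of reads on genes were mitochondrial and 9.2% of uniquely placed reads were on no gene. The P1 control libraries used had 0.139 to 0.402% and 60.7 to 73.9%. The remaining 21 libraries, 3 or 4 per group, were used here, and a library is a pool of animals, so the spread given is between pools.

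The 21 libraries held between 891817 and 2924097 reads on genes, and a count of 0 in a library allows up to between 1.03 and 3.36 CPM (counts scaled to library size; 3 reads of the library's total, counting error only). The 7 CM markers were read in all of these libraries, apart from Pcm1 in 20 of 21, while of the 5 leukocyte markers Adgre1 had 1365 reads (19 libraries), Csf1r 530 (18 libraries) and Ptprc 134 (7 libraries), and Cd68 and Cd74 had 0 reads. Casp2 itself had 0 reads at P1 and P14, 9 in the P7 control and 8 in the P7 Casp2-depleted libraries, which cannot check the genotype, and whether the 3′ tags lie in the deleted part is not given in the sources used here. P14 libraries stood apart from P7 libraries in several ways that bear on every comparison between these days. They held fewer reads (891817 to 1278961 vs. 1452114 to 2924097), fewer detected genes (7628 to 13651 vs. 14006 to 17770) and a larger share of uniquely placed reads on no gene (63.7 to 76.1% vs. 34.3 to 64.3%). Their summed CM marker level was lower (11824 to 43303 vs. 43921 to 79736 CPM), and their 5 endothelial markers had a median sum of 463 CPM against 179 CPM, with overlapping ranges (50.04 to 1052 vs. 104 to 314 CPM). Median sums at P14 and P7 were 103 and 28.3 CPM for leukocyte and 119 and 79.8 CPM for fibroblast markers. Those of mural markers were 75.7 and 88.3 CPM and those of erythroid markers 1.89 and 27.1 CPM. The ranges overlapped in each case. The part of these differences in the results below was not tested beyond the values given, and in bulk nuclei fewer cells of a type and less RNA per cell cannot be told apart.

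Proteasome reads were concentrated in a few genes. The 49 proteasome genes collected 48265 reads over the 21 libraries, of which Psmd7 had 11334 and Psma4 8646, so that these genes alone made up between 16.02 and 64.83% of the proteasome reads of a library (median 45.7%). Psmd7 encodes a subunit of the 19S lid that pairs with the deubiquitinase PSMD14, and Psma4 encodes an alpha ring subunit of the core. Both are short genes: Psmd7 spans chr8:108307010-108315121 (minus strand) and Psma4 chr9:54858066-54866448 (plus strand) in GRCm39, and per kilobase of gene they had 1397 and 1031 reads, above 99.8% and 99.7% of the tested protein-coding genes. Per kilobase, the next member considered here, Psma7, an alpha ring subunit, had 271 reads, and Psmc3, an ATPase of the cap base, 50.97 reads. Psme4, the activator PA200, had 40.2 reads per kilobase, Psmd1, a scaffold of the cap base, 33.3 reads and Psmd9, an assembly chaperone of the base, 18.6 reads. The median proteasome gene had 14.4 reads per kilobase and the median tested protein-coding gene 16.9. Only 44 of the 49 proteasome genes passed the filter on low counts, so this comparison and those that follow set unlike groups of genes side by side. Reads followed gene length among the 49 genes less than among the 14707 tested protein-coding genes, with a Spearman rho of 0.43 and 0.61 as descriptions across genes that share the same libraries; genes were counted over exons and introns, and the proteasome genes were shorter (median 13.3 vs. 31.7 kb).

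**Figure D1:**
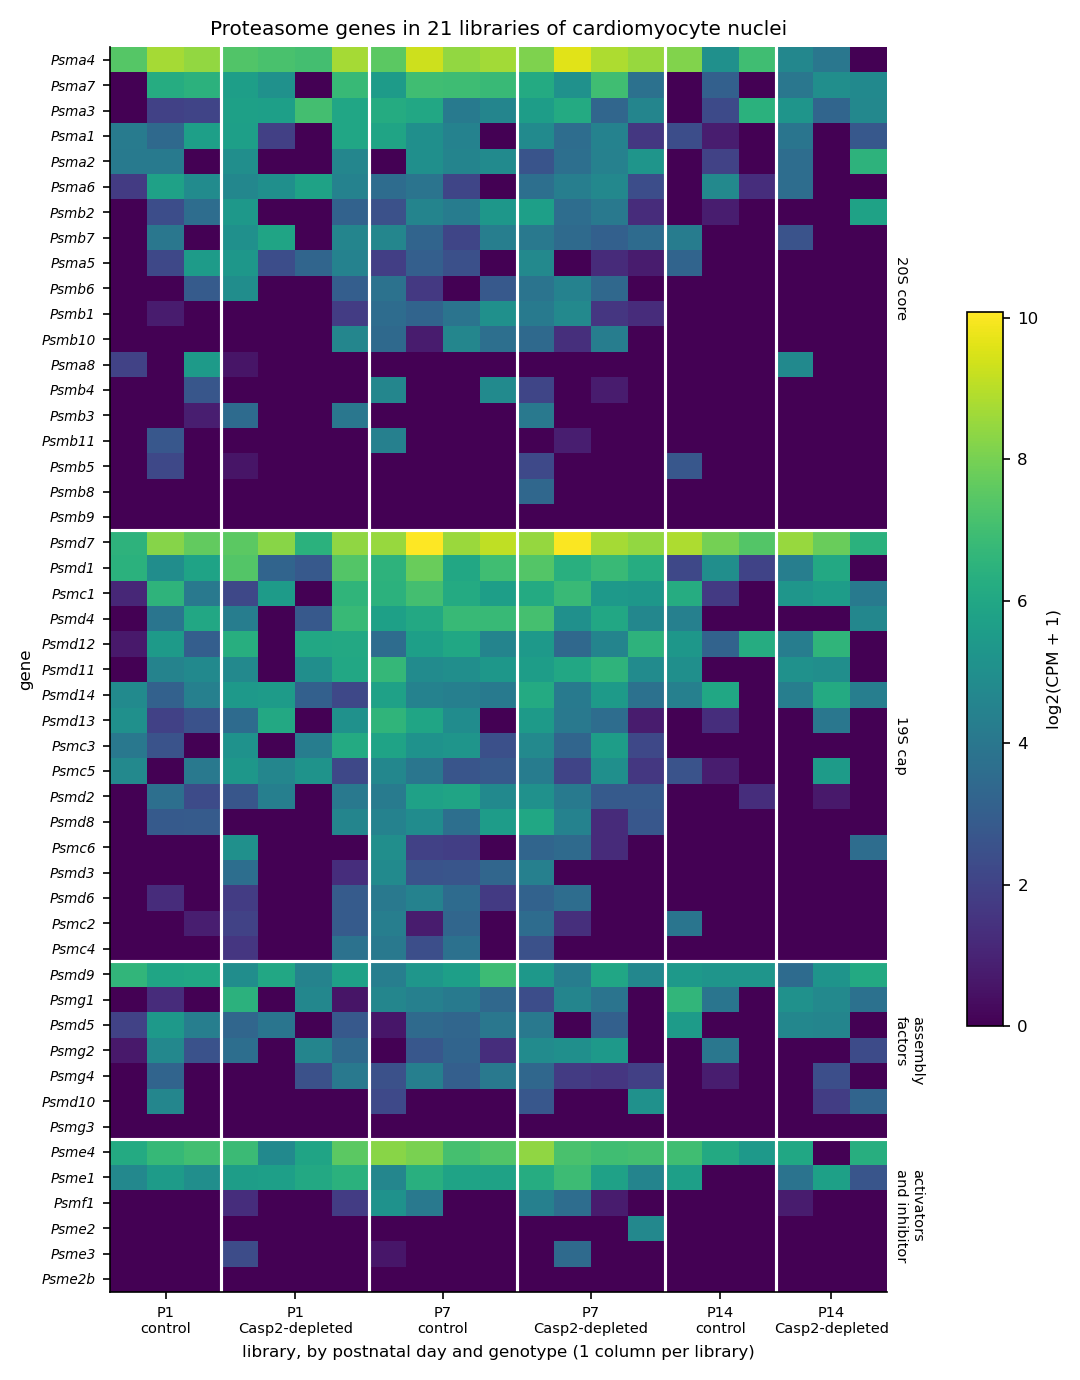
Heat map of the 49 proteasome genes (rows, grouped by class and ordered by reads) in the 21 libraries (columns, grouped by day and genotype), with colour giving log2(CPM + 1). Psma4 and Psmd7 are bright in nearly every column, most other genes are read in only some libraries, and the P14 columns hold the most genes at 0.

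The promoter windows of Psma4 and Psma7, the members that passed the test between groups, are given here, since transcription of proteasome genes is known to be set through such elements. Each window runs from 250 bases before to 50 bases after the start of the canonical transcript (GRCm39), 5′ to 3′ on the strand of the gene. That of Psma4 lies at chr9:54857817-54858116 (plus strand) and that of Psma7 at chr2:179684199-179684498 (minus strand).
Psma4: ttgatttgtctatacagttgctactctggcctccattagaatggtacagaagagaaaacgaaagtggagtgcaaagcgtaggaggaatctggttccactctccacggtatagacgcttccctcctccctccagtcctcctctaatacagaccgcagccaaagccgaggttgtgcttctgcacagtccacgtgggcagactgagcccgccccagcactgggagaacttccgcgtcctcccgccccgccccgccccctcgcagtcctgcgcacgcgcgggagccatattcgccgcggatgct
Psma7: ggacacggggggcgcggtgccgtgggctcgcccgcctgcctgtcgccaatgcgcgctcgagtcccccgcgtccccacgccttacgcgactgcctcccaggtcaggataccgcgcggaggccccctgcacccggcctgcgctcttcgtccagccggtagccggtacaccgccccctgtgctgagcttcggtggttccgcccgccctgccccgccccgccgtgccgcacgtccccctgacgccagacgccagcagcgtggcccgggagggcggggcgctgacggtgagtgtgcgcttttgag
Neither window holds the core of the antioxidant response element bound by NFE2L1 (TGACNNNGC on either strand), so no letters are in capitals. Over all 49 genes, 8 windows (16.3%) held the core on either strand, against 13.1% of the tested protein-coding genes and 12.5% of all 21770 protein-coding genes. The 8 genes were Psmb2, Psmb5, Psmb6, Psmc6, Psmd7, Psmd9, Psmd12 and Psmg2. In Psmb2, Psmb5 and Psmb6, which encode constitutive beta subunits, the first base of the core lay 1, 18 and 9 bases before the start. In Psmb2 the rest of the core thus lay past the start. A GC box (GGGCGG on either strand) was present in 61.2% of the proteasome windows, 51.7% of the tested and 42.5% of all protein-coding genes, and a CCAAT box (CCAAT on either strand) in 36.7%, 38.5% and 39.9%. On the coding strand alone the order for CCAAT turned, at 28.6%, 22.4% and 23.0%; the GC box was in 34.7%, 33.3% and 27.1% and the antioxidant core in 8.2%, 6.8% and 6.4%. A match of letters is a description and was not tested as a binding site.

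The number of members with at least 1 read differed most between P7 and P14. Of the 51 members, P7 libraries detected between 29 and 42 (median 36, 8 libraries), and P14 libraries between 9 and 20 (median 18.5, 6 libraries), so that these days did not overlap. P1 libraries ranged from 18 to 38 (median 29, 7 libraries) and overlapped both. P7 stayed above P14 when every library was thinned to the 891817 reads of the smallest, with 28 to 41 members at P7 and 9 to 20 at P14. All tested genes showed the same order at that equal depth (64.3 to 80.2% of genes with a read at P7, 37.0 to 64.2% at P14). At P1, the libraries with more uniquely placed reads on no gene detected fewer members: the 2 P1 libraries of the fit with a share below 50% detected 37 and 38 members, and the 3 with a share above 68% detected 18 or 19. The P7 libraries ran from 42 members at 34.3% to 29 at 64.3%, without a strict order between these. The P14 libraries showed no such order, with 19 members at 63.65%, 9 at 72.53% and 20 at 75.18% in the control. In the Casp2-depleted P14 libraries there were 20 members at 72.19%, 16 at 75.53% and 18 at 76.07%.

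**Figure D2:**
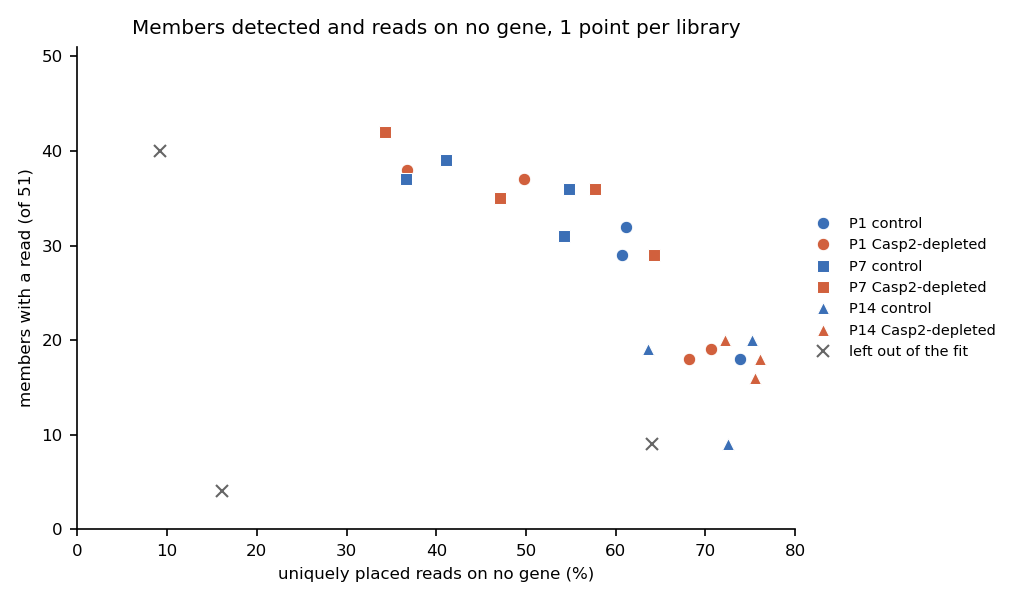
Number of the 51 members with a read (vertical axis) against the percentage of uniquely placed reads on no gene (horizontal axis), 1 point per library, with colour for genotype, shape for day and crosses for the 3 libraries set aside. The P14 points, at 63.7% and above, sit between 9 and 20 members, and the P7 points between 29 and 42.

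Summed over each class, the 20S core and the 19S cap took different courses (plot of class sums). In CPM of reads on genes, the 20S core had 281, 560 and 612 in the P1 control, 402, 544, 470 and 578 in the P7 control, then 354, 95.4 and 317 in the P14 control libraries. In Casp2-depleted libraries it had 502, 379, 401 and 586 at P1, 446, 709, 617 and 454 at P7, and 177, 79.3 and 321 at P14. The 6 P14 libraries were below all 8 P7 libraries, and P1 and P7 overlapped. The 19S cap had 374, 502 and 408 CPM in the P1 control, 912, 1045, 730 and 828 in the P7 control, and 733, 464 and 361 in the P14 control libraries. In Casp2-depleted libraries it had 634, 605, 308 and 748 CPM at P1, 825, 1004, 779 and 623 at P7, and 603, 858 and 246 at P14. The cap was thus higher in each P7 control library than in each P1 control library, while the 2 days overlapped in Casp2-depleted libraries and P14 spanned a wide range. The ratio of 20S to 19S reads was 0.751 to 1.499 in the P1 control and 0.440 to 0.697 in the P7 control, without overlap, against 0.627 to 1.30 and 0.541 to 0.791 in the Casp2-depleted libraries. Without Psma4 and Psmd7 the control ratios overlapped. Core and cap then had 52.25 and 253 CPM in P1 control replicate 2, and 248 and 605 in P7 control replicate 1. The cap without Psmd7 still stayed apart, at 215 to 253 CPM in the P1 control and 374 to 605 in the P7 control.

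A single gene weighed heavily in each of these 2 sums. Without Psma4, the 20S core had 91.6 to 248 CPM at P7 and 39.9 to 320.5 at P14, and the days overlapped; without Psmd7, the 19S cap had 284 to 605 CPM at P7 and 111 to 542 at P14. The assembly factors had a median of 66.1 CPM at P7 and 111 CPM at P14 with overlapping ranges (42.9 to 131 and 54.9 to 206). Activators and the inhibitor had 155 to 315 CPM at P7 and 62.8 to 197 at P14, and only P14 control replicate 1, at 197 CPM, was within the P7 range. No test was made on these sums.

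**Figure D3:**
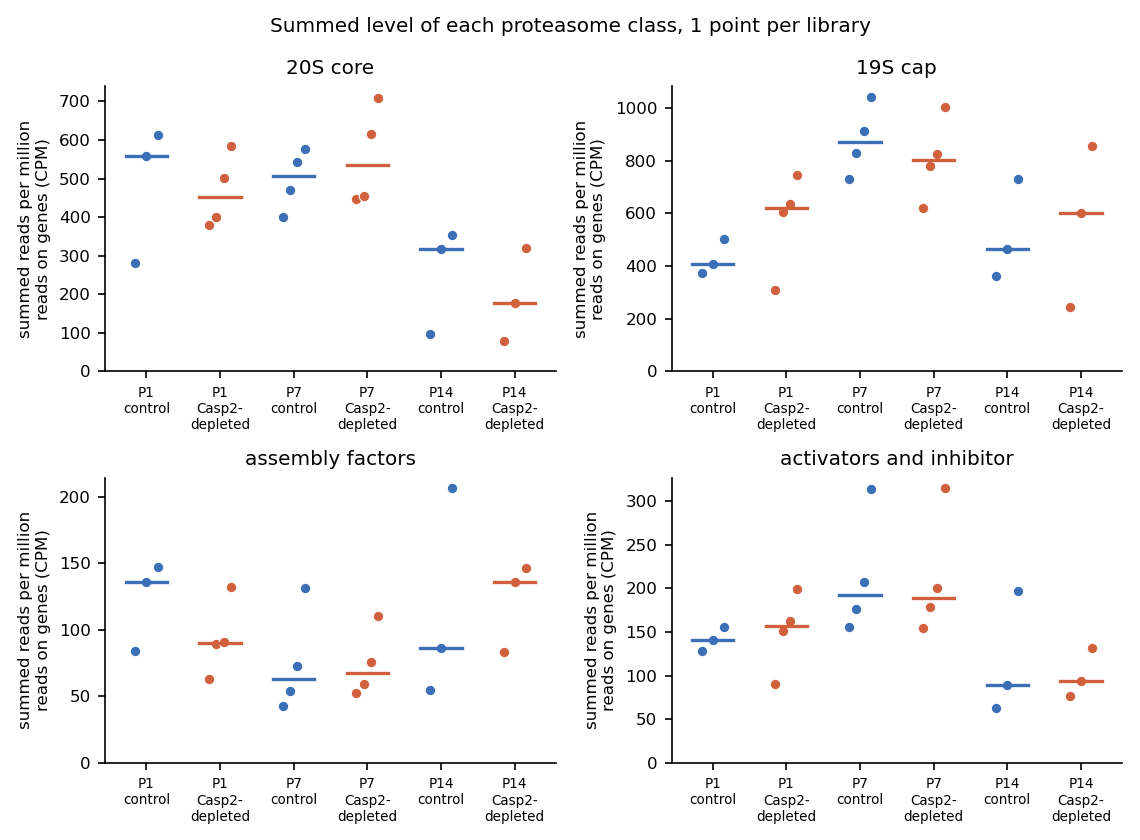
Summed CPM of reads on genes (vertical axes) of the 4 proteasome classes in the 6 groups (horizontal axes), with 1 point per library and a bar at the median, blue for control and orange for Casp2-depleted. The 20S core points of P14 lie at 354 CPM and below, and those of P7 at 402 CPM and above.

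Between P7 and P14, the members' median change lay below that of all tested genes in both genotypes, and few single members passed the test. In the control, 1 member was called, Psma7, against 1.88% of all tested genes (edgeR's quasi-likelihood test, Benjamini-Hochberg adjusted p below 0.05 over all tested genes and an absolute log2 fold change above 1). Among Casp2-depleted libraries 1 member was called, Psma4, against 2.83% of all tested genes. The median log2 fold change of the tested members was -3.32 in the control and -1.97 in the Casp2-depleted libraries, against -0.75 and -0.61 for all tested genes; with genes at 0 reads in 1 group set to their bound it was -2.24 and -1.74. Single libraries moved these medians: the control value was -2.04 without P7 control replicate 1 and -5.52 without P14 control replicate 1, and the other was -3.36 without P14 Casp2-depleted replicate 3. At an unadjusted p below 0.05, 16 members were lower in the control (12.9% of all tested genes) and 10 in the Casp2-depleted libraries (13.8%), and 1 member was higher in each, Psmb5 (1.93% of tested genes) and Psma8 (2.24%). Groups did not overlap, with P14 lower, for 14 members in the control (13.5% of tested genes) and 9 in the Casp2-depleted libraries (10.9%). When the fit also held the percentage of reads outside genes, the medians were -1.0 and -0.21, and Psma7 was no longer called, so these values depend on how this property of the libraries is treated. Other tools called more members: limma-voom called 10 (TMM) and 5 (quantile normalization) in the control and 5 and 2 in the Casp2-depleted libraries, and DESeq2 called 5 and 4, all lower at P14.

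By class, the medians of core and cap lay far below 0, while that of the assembly factors lay closer to 0. In the control the median log2 fold change was -3.99 for the 20S core, -3.66 for the 19S cap, -1.57 for activators and inhibitor and -0.11 for the assembly factors. With Casp2 depleted these medians were -2.70, -1.93, -3.33 and -0.64. With genes at 0 reads set to their bound, the medians of core, cap, activators and inhibitor, and assembly factors were -2.75, -3.46, -1.57 and 0.01 in the control and -1.74, -1.81, -1.97 and -0.64 with Casp2 depleted. At an unadjusted p below 0.05, the control had 6 of 17 core genes, 9 of 17 cap genes and 0 of 6 assembly factors lower at P14, against 12.9% of all tested genes. With Casp2 depleted the counts were 5 of 17, 4 of 17 and 0 of 6, against 13.8% of all tested genes. A count of 0 of 6 is near these shares, and the difference between classes was not tested.

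**Figure D4:**
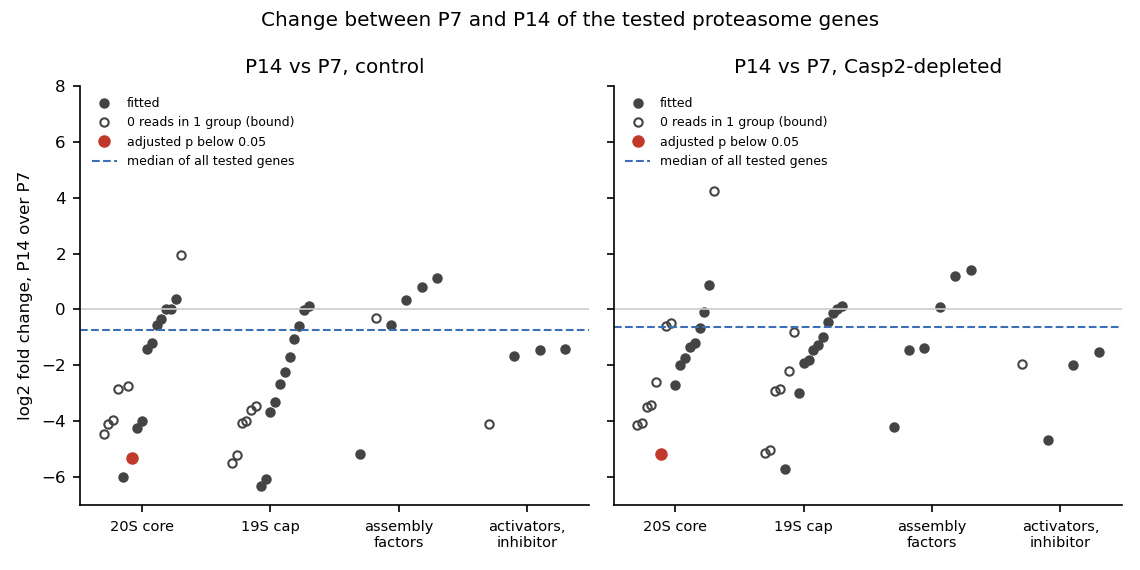
Log2 fold change of P14 over P7 (vertical axis) of the tested proteasome genes by class (horizontal axis), in control (left) and Casp2-depleted libraries (right), with open circles for genes at 0 reads in 1 group, set to their bound, red for genes called and a dashed line at the median of all tested genes (-0.75 and -0.61). Most core and cap genes lie below the dashed line, and assembly factors lie on both sides of it.

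In the control, Psma7 had 45.3, 127, 121 and 114 CPM at P7 against 0, 7.48 and 0 at P14, which did not overlap. It was lower at P14 by a log2 fold change of -5.31 (SE 1.51, adjusted p = 0.0297, edgeR), with 602 reads in all at P7 and 10 at P14. In the Casp2-depleted libraries Psma7 had 70.3, 33.2, 126 and 12.6 CPM at P7 and 14.8, 30.2 and 26.8 at P14, and the groups overlapped. P1 values were 0, 75.1 and 87.1 CPM in the control and 49.1, 33.6, 0 and 109 in the Casp2-depleted libraries. The call was lost when any of P7 control replicates 2, 3 or 4 or P14 control replicates 1 or 4 was left out (adjusted p from 0.067 to 0.16) and when replicate numbers entered as a block (adjusted p = 0.055). Psma7 overlaps Ss18l1 on the opposite strand, and whether the counting used strand is not given in the sources used here.

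Of the other core genes, Psmb1, Psmb3, Psmb4, Psmb6, Psmb8, Psmb9, Psmb10 and Psmb11 had 0 reads in all 6 P14 libraries of the fit. Psmb4 had 7 reads in 1 P1 control, 46 and 36 in 2 P7 control and 7 and 1 in 2 P7 Casp2-depleted libraries. Psmb1, a structural beta subunit, had 21, 12, 21 and 43 reads in the P7 control, 35, 33, 3 and 2 in the P7 Casp2-depleted and 0 in all 6 P14 libraries, and at P1 it had 1 read in the control and 5 in the Casp2-depleted libraries. The P7 mean of Psmb1 was 22.2-fold above the P14 bound in the control and 17.4-fold in the Casp2-depleted libraries. This bound takes 3 reads over a group at 0 and leaves out the spread between libraries. Neither change passed the adjusted threshold (edgeR, unadjusted p = 0.028 and 0.033, adjusted p = 0.30 and 0.28). The set-aside P14 Casp2-depleted replicate 1 had 59 reads on Psmb1 among 1441122 reads on genes. Psmb2, a structural subunit of the beta ring, had 4.69, 22.3, 17.6 and 38.9 CPM in the P7 control and 50.3, 11.1, 15.8 and 1.40 in the P7 Casp2-depleted libraries. At P14 it had 0, 1 and 0 reads in the control and 0, 0 and 85 in the Casp2-depleted libraries, so that 1 library held nearly all of them, at a level above each P7 library (55.5 CPM). Its P1 reads were 0, 6 and 14 in the control and 80, 0, 0 and 16 in the Casp2-depleted libraries. Psmb6, the subunit with caspase-like activity, had 25, 3, 0 and 8 reads in the P7 control, 29, 27, 14 and 0 in the P7 Casp2-depleted and 0 in all P14 libraries. At P1 it had 0, 0 and 8 reads in the control and 60, 0, 0 and 14 in the Casp2-depleted libraries. Psmb5, the subunit with chymotrypsin-like activity, had reads in 4 of the 21 libraries: 5 in 1 P1 control, 1 in 1 P1 Casp2-depleted, 8 in 1 P7 Casp2-depleted and 8 in 1 P14 control library. Psmb3 had 1 read in a P1 control, 21 and 30 in P1 Casp2-depleted and 34 in a P7 Casp2-depleted library and 0 in the other 17. By limma-voom with TMM, Psmb1 was called lower at P14 than at P7 in both genotypes and Psmb2 in the control, and with quantile normalization Psmb1 was called in the control.

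Among the alpha subunits, Psma5 had 5, 10, 7 and 0 reads in the P7 control, 56, 0, 2 and 1 in the P7 Casp2-depleted, 12, 0 and 0 in the P14 control and 0 in all P14 Casp2-depleted libraries. At P1 it had 0, 5 and 57 reads in the control and 79, 6, 13 and 42 in the Casp2-depleted libraries. Every Casp2-depleted P1 library thus had reads where the Casp2-depleted P14 libraries had 0. The P1 mean of Psma5 was 27.8-fold above the P14 bound (edgeR, unadjusted p = 0.018, adjusted p = 0.23). Psma8, the spermatocyte-specific alpha subunit, had 5, 0 and 55 reads in the P1 control, 1 read in the P1 Casp2-depleted, 38 reads in 1 P14 Casp2-depleted and 0 in the other libraries. It has 99 reads in 4 libraries and overlaps Gm58880 on the same strand.

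The subunits of the interferon-induced and thymic proteasomes were almost absent. Psmb9 had 0 reads in all 21 libraries and Psmb8 20 reads in 1 P7 Casp2-depleted library. Psmb10, their partner in the immunoproteasome, had 19, 1, 36 and 16 reads in the P7 control, 21, 2, 27 and 0 in the P7 Casp2-depleted, 47 in 1 of the 4 P1 Casp2-depleted libraries and 0 in all P1 control and P14 libraries. In the control, the P7 mean of Psmb10 was 15.7-fold above the P14 bound (edgeR, unadjusted p = 0.038, adjusted p = 0.32). The thymic subunit Psmb11 had 8 reads in 1 P1 control, 38 in 1 P7 control and 1 in 1 P7 Casp2-depleted library.

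In the 19S cap, Psmc3, an ATPase of the base, had reads at P1 and P7 and 0 at P14. It had 56.3, 34.5, 37.2 and 4.49 CPM in the P7 control and 26.1, 8.69, 47.3 and 3.50 in the P7 Casp2-depleted libraries (219 and 141 reads in all), and 0 reads in each of the 6 P14 libraries. Its P1 levels were 15.6, 4.92 and 0 CPM in the control and 34.6, 0, 18.2 and 70.2 in the Casp2-depleted libraries. The P7 mean was 45.0-fold above the P14 bound in the control and 32.4-fold in the Casp2-depleted libraries, a value that leaves out the spread between libraries. Psmc3 was not called by edgeR (unadjusted p = 0.0042 and 0.0059, adjusted p = 0.13 and 0.13), while limma-voom and DESeq2 called it lower in both genotypes. Psmc3 overlaps Slc39a13 on the opposite strand.

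Psmd8, a lid subunit, had 41, 40, 18 and 62 reads in the P7 control, 137, 27, 2 and 8 in the P7 Casp2-depleted and 0 in all 6 P14 libraries. Its P1 values were 0, 9 and 8 reads in the control and 46 in 1 of the 4 Casp2-depleted libraries. Its P7 mean was 36.8-fold above the P14 bound in the control and 34.9-fold in the Casp2-depleted libraries (edgeR, unadjusted p = 0.010 and 0.011, adjusted p = 0.21 and 0.18). Psmd2, a scaffold of the cap base, had 33, 74, 88 and 35 reads in the P7 control, 71, 21, 9 and 9 in the P7 Casp2-depleted, 0, 0 and 2 in the P14 control and 0, 1 and 0 in the P14 Casp2-depleted libraries. Its P1 reads were 0, 17 and 5 in the control and 11, 28, 0 and 32 in the Casp2-depleted libraries. Both genes were without overlap between P7 and P14 in each genotype, and limma-voom with TMM and DESeq2 called both lower at P14 in each genotype; Psmd2 overlaps Gm4462 on the same strand.

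Psmd1, the other large scaffold, still had reads in 5 of 6 P14 libraries. It had 90.2, 216, 64.6 and 127 CPM in the P7 control and 3.52, 30.7 and 3.03 in the P14 control libraries (log2 fold change -3.32, SE 1.08, unadjusted p = 0.0021, adjusted p = 0.082, edgeR). In the Casp2-depleted libraries it had 168, 80.6, 112 and 75.0 CPM at P7 and 18.98, 66.6 and 0 at P14. P1 values were 85.8, 29.5 and 56.2 CPM in the control and 164, 8.39, 6.08 and 165 in the Casp2-depleted libraries. The P7 and P14 groups did not overlap in either genotype, and among the P1 Casp2-depleted libraries 2 were high and 2 were below 10 CPM. Psmd3, a lid subunit, had 53, 7, 8 and 12 reads in the P7 control, 43 in 1 of the P7 Casp2-depleted libraries, 23 and 3 in 2 of the P1 Casp2-depleted libraries and 0 in all P1 control and P14 libraries. The ATPase gene Psmc6 had 58, 4, 4 and 0 reads in the P7 control, 19, 13, 2 and 0 in the P7 Casp2-depleted, 64 in 1 P1 Casp2-depleted, 17 in 1 P14 Casp2-depleted and 0 in all P1 control and P14 control libraries.

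The activator gene Psme4 had 315, 263, 138 and 162 CPM in the P7 control and 127, 68.8 and 42.4 in the P14 control libraries. With Casp2 depleted Psme4 had 334, 145, 125 and 134 CPM at P7 and 62.6, 0 and 78.4 at P14. All P14 libraries were below all P7 libraries of their genotype, with log2 fold changes of -1.47 (SE 0.75, unadjusted p = 0.050) and -1.97 (SE 0.76, unadjusted p = 0.0099), neither of which passed the adjusted threshold (adjusted p = 0.33 and 0.18, edgeR). At P1 it had 70.2, 107 and 129 CPM in the control and 116, 26.6, 57.4 and 184 in the Casp2-depleted libraries. Psmf1, the inhibitor of the core, had 66, 22, 0 and 0 reads in the P7 control, 43, 14, 1 and 0 in the P7 Casp2-depleted, 3 and 5 in 2 P1 Casp2-depleted libraries, 1 in a P14 Casp2-depleted library and 0 elsewhere.

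Psmd9 was read in all 21 libraries, with 97.8, 59.0 and 62.6 CPM in the P1 control, 18.8, 38.1, 50.2 and 119 in the P7 control and 41.6, 36.6 and 37.1 in the P14 control libraries. The Casp2-depleted libraries had 30.1, 64.3, 21.6 and 52.8 CPM at P1, 40.5, 18.2, 61.0 and 24.5 at P7 and 10.5, 36.5 and 68.6 at P14. Its groups overlapped between P7 and both other days. Psmg1, a chaperone of the alpha ring, had 0, 2 and 0 reads in the P1 control, 45, 28, 25 and 13 in the P7 control and 140, 19 and 0 in the P14 control libraries. Psmg1 reads with Casp2 depleted were 173, 0, 36 and 1 at P1, 9, 29, 20 and 0 at P7 and 47, 41 and 19 at P14. Psmd10, a chaperone of the cap base also known as gankyrin, had 34 reads in 1 P1 control and 7 in 1 P7 control library, and 12 and 47 in 2 P7 and 4 and 13 in 2 P14 Casp2-depleted libraries.

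Between P1 and P7, no member passed the test, and the members' median lay above 0. In the control, 0 members were called by edgeR, limma-voom or DESeq2 (0.00982% of all tested genes by edgeR), and 8 had an unadjusted p below 0.05. Of these, 7 were higher at P7 (4.52% of tested genes) and Psma8 was lower (2.15%). The median log2 fold change was 1.37 for the members and 0.21 for all tested genes, and 11 members were higher at P7 without overlap of the groups (6.89% of tested genes). By class it was 1.76 for the 19S cap, 0.91 for the 20S core, 1.27 for activators and inhibitor and -0.83 for the assembly factors. In the Casp2-depleted libraries, 0 members were called by any of these tools (0.0196% of tested genes by edgeR), 3 had an unadjusted p below 0.05, all higher at P7 (5.14% of tested genes), and the median was 0.34 against 0.07 for all tested genes, turning to -0.05 without P7 Casp2-depleted replicate 1 and -0.03 without P1 Casp2-depleted replicate 3. Psmd7 was higher at P7 without overlap in both genotypes, as the only member in the Casp2-depleted libraries (1.48% of tested genes). It had 90.0, 306 and 199 CPM in the P1 control against 366, 1077, 378 and 555 in the P7 control, and 186, 313, 85.0 and 340 at P1 and 352, 1022, 422 and 345 at P7 in the Casp2-depleted libraries. Its log2 fold changes were 1.58 (SE 0.55, unadjusted p = 0.0040, adjusted p = 0.63) and 1.21 (SE 0.49, unadjusted p = 0.014, adjusted p = 0.67, edgeR). At P14 it had 452, 250 and 165 CPM in the control and 367, 215 and 86.2 in the Casp2-depleted libraries, ranges that overlapped with P1 and with P7.

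Between P1 and P14, the control had 0 members called by edgeR and by limma-voom (0.319% of tested genes by edgeR) and 2 by DESeq2, Psma3 and Psmg1, both higher at P14; 7 members had an unadjusted p below 0.05, 5 of them lower (9.09% of tested genes) and 2 higher (2.36%). Psmd13, Psmd9 and Psma1 were lower at P14 without overlap (6.41% of tested genes). The members' median log2 fold change was -1.61 (-1.08 with bounds) against -0.28 for all tested genes; it was -0.31 without P1 control replicate 3, -0.54 without P1 control replicate 4 and -2.76 without P14 control replicate 1. In the Casp2-depleted libraries edgeR called 1 member, Psma4 (1.94% of tested genes). DESeq2 called Psma4 and Psmc3, and limma-voom did not call Psma4 (adjusted p = 0.137 with TMM and 0.0717 with quantile normalization) but Psma5 and Psmc3, with Psma6 added under quantile normalization, all lower at P14. By edgeR, 5 members were lower at an unadjusted p below 0.05 (13.3% of tested genes) and Psmd10 was higher (4.12%), 4 alpha subunits, Psma3, Psma4, Psma5 and Psma6, were lower without overlap (4.78%), and the median was -1.76 (-1.59 with bounds) against -0.41. When the fit also held the percentage of reads outside genes, the last median was 0.07; without that term but with P1 Casp2-depleted replicate 4 left out it was -0.97.

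Between genotypes, few proteasome genes passed the test at any day, which does not show that the others were alike. At P1, 0 members were called by edgeR and by limma-voom with TMM (0% of tested genes by edgeR), while limma-voom with quantile normalization and DESeq2 each called Psma3. At P7, 0 members were called by any tool (0% of tested genes by edgeR), and 1 had an unadjusted p below 0.05, Psmb3, higher in the Casp2-depleted libraries (2.03% of tested genes) from the reads of a single library. Over all tested genes, the alternative tools and settings called 0 to 25 genes at P7. With limma and the same thresholds, the paper reported genes that differed between the genotypes at P7, Cdkn1a and Lin37 among them. At P14, edgeR called 1 member, Psma4 (0.167% of tested genes); at an unadjusted p below 0.05, Psma4 alone was lower (6.52%) and Psma7 and Psmb2 were higher (6.31%). The members' median log2 fold change of Casp2-depleted over control was 0.86 (0.59 with bounds) at P1, -0.25 at P7 and 0 at P14, against 0.08, -0.03 and 0 for all tested genes. The P1 median was -0.08 with all 24 libraries, which include P1 control replicate 1 with its signs of cytoplasmic contamination. It was 0.21 without P1 Casp2-depleted replicate 4. At P1, 4 members had an unadjusted p below 0.05, 3 of them higher in Casp2-depleted libraries (3.08% of tested genes) and Psmd10 lower (4.26%), and Psme1 and Psma3 were higher without overlap (1.13%).

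Psma3, an alpha subunit, was the member with the smallest p at P1. It had 0, 2.81 and 3.17 CPM in the P1 control and 52.6, 50.4, 132 and 60.8 in the P1 Casp2-depleted libraries, without overlap (log2 fold change 5.18, SE 1.81, unadjusted p = 0.0043, adjusted p = 0.64, edgeR). It had 71.9, 64.6, 16.3 and 23.2 CPM in the P7 control and 48.4, 71.1, 8.92 and 23.1 in the P7 Casp2-depleted libraries, which overlapped. At P14 it had 0, 3.74 and 85.5 CPM in the control and 37.2, 8.80 and 24.8 in the Casp2-depleted libraries. Of the 21 libraries used, the 3 P1 control libraries and 2 of the P14 control libraries were thus the only ones below 4 CPM. The P1 control library that was set aside, replicate 1, had 386 reads on Psma3 among 3310579 reads on genes. The lack of overlap between genotypes at P1 therefore holds only for the libraries used. Since the paper named signs of cytoplasmic contamination in replicate 1, its reads may not compare with those of the other libraries.

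Psma4 was the only member that edgeR called between genotypes. At P14 it had 283, 32.1 and 127 CPM in the control libraries (402, 43 and 168 reads) and 24.6, 15.1 and 0 CPM in the Casp2-depleted libraries (35, 24 and 0 reads), a log2 fold change of -3.47 (SE 0.67, adjusted p = 8.3e-04, edgeR). The groups did not overlap (2.14% of tested genes were lower without overlap), but control replicate 2, at 32.1 CPM, lay close to the highest Casp2-depleted library. At P7 it had 183, 627, 342 and 408 CPM in the control and 281, 790.3, 455 and 369 in the Casp2-depleted libraries, and at P1 170.4, 417 and 349 in the control and 159, 146, 134 and 420 in the Casp2-depleted libraries. The genotypes overlapped at both days. Within Casp2-depleted libraries, Psma4 was lower at P14 than at P7 by a log2 fold change of -5.16 (SE 0.71, adjusted p = 3.5e-10) and than at P1 by -4.02 (SE 0.67, adjusted p = 1.2e-06, edgeR). In the control the change from P7 to P14 was -1.40 (SE 0.58, unadjusted p = 0.016, adjusted p = 0.25). The test of the difference between these changes gave -3.75 on the log2 scale (SE 0.83, adjusted p = 0.024, edgeR).

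The genotype call of Psma4 at P14 depended on the tool, the filter and the libraries that entered. It was kept by DESeq2 and lost with limma-voom (adjusted p = 0.446 with TMM and 0.328 with quantile normalization), with edgeR's filterByExpr (adjusted p = 0.0639) and with only the 2 groups compared (adjusted p = 1). Without P14 control replicate 1 the log2 fold change was -2.59 (adjusted p = 0.084) and without P14 Casp2-depleted replicate 4 it was -2.80 (adjusted p = 0.10), and with all 24 libraries, where both set-aside P14 libraries had 0 reads on Psma4, it was -3.46 (adjusted p = 0.17, edgeR). The difference between genotypes in the change from P7 to P14 was lost in the same way, with adjusted p = 0.31 without that control library and 0.35 without that Casp2-depleted library, and without P7 Casp2-depleted replicate 2 it was 0.27. It was also lost without P7 Casp2-depleted replicate 3 and without P7 control replicates 1, 3 or 4 (adjusted p from 0.0563 to 0.135), and when replicate numbers entered as a block (-3.95, adjusted p = 0.057). The fall within Casp2-depleted libraries from P7 to P14 was called whichever library was left out. For Psma7, each P14 Casp2-depleted library lay above each P14 control library (log2 fold change 3.23, SE 1.41, unadjusted p = 0.023, adjusted p = 0.38, edgeR; 3.01% of tested genes were higher without overlap), the opposite order to Psma4, and this difference did not pass the adjusted threshold. The start of Psma4 is overlapped by the antisense gene AY074887.

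**Figure D5:**
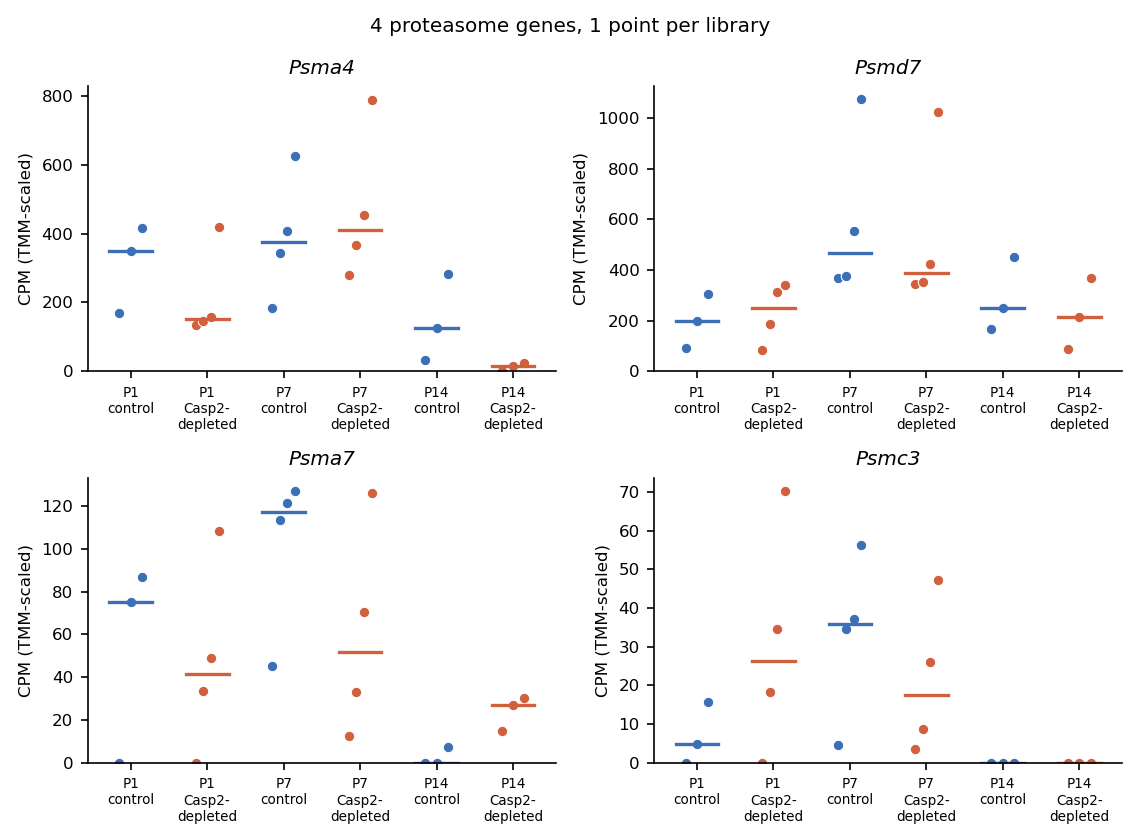
CPM scaled by TMM (vertical axes) of Psma4, Psmd7, Psma7 and Psmc3 in the 6 groups (horizontal axes), with 1 point per library and a bar at the median, blue for control and orange for Casp2-depleted. Psma4 lies between 0 and 24.6 CPM in the P14 Casp2-depleted libraries and at 32.1 CPM and above elsewhere, and Psmc3 is at 0 in all 6 P14 libraries.

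The other genes of the ubiquitin-proteasome system were counted from a list of subunits under other names, ubiquitin genes, the NFE2L1 axis and proteasome-bound or shuttle factors, of which 25 were tested. By edgeR, 0 of them were called in any of the 9 comparisons; limma-voom and DESeq2 each called 1 or 2 in the change from P7 to P14 in each genotype, Nfe2l1 lower in each case. At an unadjusted p below 0.05, 6 were lower at P14 than at P7 in the control (12.9% of all tested genes) and 8 in the Casp2-depleted libraries (13.8%), and 0 were higher. The median log2 fold change of the list was -1.53 and -2.02, as against -3.32 and -1.97 for the members. Nfe2l1 had 29.2, 45.2, 36.5 and 8.97 CPM in the P7 control and 70.3, 30.0, 43.9 and 16.8 in the P7 Casp2-depleted libraries. At P14 it had 0, 0.748 and 0 CPM in the control and 0 in the Casp2-depleted libraries of the fit. Of the set-aside P14 libraries, Casp2-depleted replicate 1 had 44 reads on Nfe2l1 among 1441122 reads on genes, and control replicate 3 had 0. At P1 it had 1.20, 27.4 and 29.3 CPM in the control and 0, 0, 1.35 and 18.4 in the Casp2-depleted libraries. The P7 and P14 libraries of the fit did not overlap in either genotype (edgeR, unadjusted p = 0.018 and 0.0032, adjusted p = 0.26 and 0.086). Vcp, the segregase that delivers substrates to the proteasome, had P14 libraries that were all below the P7 libraries, with log2 fold changes of -1.53 (SE 0.74) and -2.02 (SE 0.75), neither passing the adjusted threshold (adjusted p = 0.32 and 0.15, edgeR).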

How the data were processed

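Nuclear RNA of PCM1-sorted CM nuclei was sequenced from 3′ ends. The authors trimmed reads with cutadapt 4.0, checked them with FastQC 0.11.8, aligned them to GRCm39 (Ensembl 108) with STAR 2.6.1e and counted reads over whole genes, introns included, with HTSeq 2.0.3. The deposited values are raw counts per gene in 1 table per library; the strand setting of the counting is not given in the sources used here. Rows that name no gene were left out of library sizes and tests, and the reads on no gene were between 34.3 and 76.1% of uniquely placed reads in the 21 libraries used.

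Genes whose reads summed to 10 or more and came from 3 or more libraries were tested with edgeR 4.0.16 (R 4.3.3; TMM, robust quasi-likelihood F-test, 6 group means, 15 residual degrees of freedom, Benjamini-Hochberg adjustment over all tested genes). Genes were called at an adjusted p below 0.05 where the log2 fold change also exceeded 1 in size. The standard error is the absolute log2 fold change divided by the square root of F. The fitted biological coefficient of variation was 1.5. Gene CPM use TMM-scaled library sizes and class sums use reads on genes. A group at 0 was set to 3 reads over the group for a bound, which covers counting error only. The fold given with a bound is the mean of the other group over it, so the spread between libraries does not enter. P-values measure the spread between pools. The fit was also run on simulated data with known changes, planted only in genes above a set mean level. That run cannot show how many changes the fit would recover among members with few reads. Values in every library are given for members called in any comparison, with an unadjusted p below 0.05 in at least 2 of the 9 or among the 3 smallest in 1, for the most-read member of each class and for the immune subunits; Vcp was added after its values were seen.

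Limma-voom (limma 3.58.1), DESeq2 1.42.0, other filters and scalings, all 24 libraries, thinning, the percentage of reads outside genes as a covariate, only the 2 groups compared, motifs on the coding strand alone, a replicate block and leaving out each library were tried; the fit without robust estimation was chosen after seeing the data. Sample titles number the replicates, and the names of the count tables give the same number as a batch without saying what was shared, so the block is reported where it ends a call; deviations from the group means correlated between -0.059 and 0.19 across the same-numbered pairs of the 2 genotypes. Sequences were read from the GRCm39 genome with GENCODE vM39 genes. The promoter sequences of other members are not reported here. The members and gene lists were chosen with earlier results of these data known.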

Additional observations from a re-analysis of the deposited data

Results flagged for a closer look

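In 30 groups of values tested, of which chance flags about 5 percent, 4 libraries stood apart from the rest of their group. Psma4 had 420 CPM in P1 Casp2-depleted replicate 4, against 134 to 159 CPM in the other 3. Psma7 had 45.3 CPM in P7 control replicate 1, against 114 to 127 CPM in the other 3. Psmd7 had 1022 CPM in P7 Casp2-depleted replicate 2, and Psme4 had 334 CPM in P7 Casp2-depleted replicate 1, each above the other 3 libraries of the group.

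The change of Psma4 from P7 to P14 differed between the genotypes by -3.75 on the log2 scale (edgeR, adjusted p = 0.024; 0.057 with the replicate block), and the cause was not tested.

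The 3 libraries that the study set aside had class sums on both sides of the range of their group's libraries. P1 control replicate 1 had 845 CPM for the 19S cap and 309 CPM for the activators and inhibitor. P14 control replicate 3 had 2348 CPM for the 19S cap and 241 CPM for the activators and inhibitor, with 4 of the 51 members read, and P14 Casp2-depleted replicate 1 had 636 CPM for the 20S core, with 9 members read. Below the range, P14 control replicate 3 had 0 CPM for the 20S core and for the assembly factors, and P14 Casp2-depleted replicate 1 had 107.6 CPM for the 19S cap and 0.694 CPM for the assembly factors.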

How the results depend on the processing

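Calls of single members depended on the tool, the filter and the libraries, and 147 of the 180 counts of members called stayed as they were. These counts include comparisons with 0 members called in the main fit, where little could change. The call of Psma7 was kept in 8 of 19 alternatives, and the calls of Psma4 in 59 of 81 over all its comparisons. The members' median changed sign from -1.76 to 0.07 (P1 to P14, Casp2-depleted, percentage of reads outside genes in the fit) and from 0.86 to -0.08 (genotypes at P1, all 24 libraries), and it reached -0.05 from 0.34 (P1 to P7, Casp2-depleted) with 1 library left out. With 1 library left out the medians ranged from -5.52 to -2.04 (P7 to P14, control), -3.36 to -1.41 (P7 to P14, Casp2-depleted), -2.76 to -0.31 (P1 to P14, control) and -2.41 to -0.97 (P1 to P14, Casp2-depleted). From P7 to P14 in the control, the 1 member called became 0 with filterByExpr, all 24 libraries, the replicate block, DESeq2 size factors in edgeR, the percentage of reads outside genes in the fit and only the 2 groups compared; it became 10 with limma-voom (TMM), 5 with limma-voom (quantile) and 5 with DESeq2. In the Casp2-depleted libraries it became 5, 2 and 4 with these 3 tools, and from P1 to P14 it became 2, 3 and 2, of which the limma-voom calls did not include Psma4. From P1 to P14 in the control DESeq2 called 2. Between genotypes at P14 the 1 call became 0 with filterByExpr, all 24 libraries, both limma-voom fits and only the 2 groups compared, and at P1 limma-voom (quantile) and DESeq2 called 1 each. The cause was not tested.

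The 1 interaction called (P14 vs. P7) became 0 with filterByExpr, without robust estimation, with all 24 libraries, the replicate block and both limma-voom fits, and DESeq2 called 1 for P14 vs. P1. The replicate block changed no other call of a member than this one and Psma7. With 1 library left out, members called ranged from 0 to 3 (P7 to P14, control), 1 to 2 (P7 to P14, Casp2-depleted), 0 to 1 (P1 to P14, control) and 0 to 1 (genotypes at P14), and interactions from 0 to 1 (P14 vs. P7 and P14 vs. P1).

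Of the 25 other genes of the pathway, limma-voom (TMM), limma-voom (quantile) and DESeq2 called 1, 1 and 2 from P7 to P14 in the control and 2, 1 and 2 in the Casp2-depleted libraries; DESeq2 called 1 (control) and 2 (Casp2-depleted) from P1 to P14 and 2 between genotypes at P14, where limma-voom (quantile) called 1. Over all tested genes, calls ranged from 35 to 1150 (P7 to P14, control), 124 to 1171 (P7 to P14, Casp2-depleted), 0 to 25 (genotypes at P7) and 1 to 662 (genotypes at P14) across these alternatives.

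With TMM-scaled library sizes the median class sums were 648 CPM (20S core, P7 control), 1049 and 1012 (19S cap, P7 control and Casp2-depleted), 288 (activators and inhibitor, P7 control), 101 and 92.4 (assembly factors, P1 control and P14 Casp2-depleted). Without the 10 most-read genes they were 659 (20S core, P7 control), 482, 1059 and 987 (19S cap, P1 control, P7 control and P7 Casp2-depleted) and 168 (activators and inhibitor, P1 control). Few reads limit most members.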
